A study of Mus musculus with 2 samples.

Results

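The Nrf2 antioxidant response genes described here are 10 genes chosen by symbol from the gene table that both libraries share, out of 31053 genes in all: Slc7a11, Gclc, Gclm, Gsr, Txnrd1, Prdx1, Srxn1, Hmox1, Nqo1 and Nfe2l2. Each symbol matched 1 row of the table. No threshold on a measured value chose them, but earlier results of these data were known when they were chosen. The cells came from the colon of chimeric mice, in which the marrow of a CD45.1 recipient had been replaced by CD45.2 donor marrow. The donors lacked the IL-10 receptor (IL-10R KO, here KO) or lacked it together with CerS2, an enzyme of ceramide synthesis with a preference for very long acyl chains (IL-10R/CerS2 DKO, here DKO). The donors of both groups are thus labelled as lacking the receptor, cells of the recipient that survive irradiation keep both genes, and no library of intact donors was analysed here. Cells were freed with collagenase D, sorted for CD45, CD11b, CD11c and CD64, and profiled as droplet libraries of RNA 3′ ends. By the study's methods that sort was meant to leave out neutrophils, B cells and T cells, whereas its results name CD45 alone. The labels give 1 library per genotype, and neither the age of the mice nor the number of mice pooled. Every difference below is thus between 2 libraries, with no replicate check and no test, and every 95% interval covers counting error only.

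Nrf2, the product of Nfe2l2, is a transcription factor that Keap1 holds in the cytoplasm and sends to degradation in resting cells. When reactive oxygen species or electrophiles modify Keap1, Nrf2 builds up, enters the nucleus, pairs with a small Maf protein and binds antioxidant response elements near its target genes. Its targets import cystine, make and recycle glutathione, run the thioredoxin system and break down haem. In macrophages this programme is known to accompany activation, when nitric oxide and superoxide are made by the cell itself.

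The binding element was looked for as its core TGACNNNGC, on both strands, in windows from 250 bases before to 50 bases after each RefSeq transcript start (build GRCm38.p6). RefSeq windows were found for 7 of the 10 genes (9 windows, since Txnrd1 has several starts), and 5 of those 7 genes held a core in 1 window each (55.6% of the 9). Of all 32851 windows, 12.4% held one. The 5 windows are shown because they are the stretches near these genes that carry the letters Nrf2 is known to bind. The core is in capitals, each run is on the strand of the gene, and where the capitals begin with GC the core lies on the opposite strand.
Gclm (chr3:122245413-122245441, plus strand): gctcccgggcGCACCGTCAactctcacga
Prdx1 (chr4:116685456-116685484, plus strand): cagggaaagcGCTGAGTCAtcccccgtag
Txnrd1 (chr10:82859104-82859132, plus strand): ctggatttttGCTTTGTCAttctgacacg
Srxn1 (chr2:152105542-152105570, plus strand): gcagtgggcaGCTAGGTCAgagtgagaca
Nfe2l2 (chr2:75704885-75704913, minus strand): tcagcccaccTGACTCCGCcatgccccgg
The core began 134 bases before the start in Gclm, 133 in Prdx1, 92 before 1 of the starts of Txnrd1 and 240 in Nfe2l2, and 28 bases after the start in Srxn1, inside its transcript. The end of the Nfe2l2 window, alone of the 9, did not match the beginning of a transcript in GENCODE vM21, the source of the gene positions. Its distance thus rests on the RefSeq start. The core of Prdx1 also holds TGACTCA, the letters of an AP-1 site. The windows of Slc7a11 and Nqo1 held no core, and Hmox1, Gclc and Gsr had no window. These matches describe letters in short windows, not bound sites.

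The KO library held 2443 cells after filtering and the DKO library 730, with a median of 4715 and 3722 UMIs (counted molecules) per cell, and 1 barcode occurred in both. Cers2, the gene deleted in DKO donors alone, had 442 UMIs in KO monocyte/macrophage-like cells and 0 in the 318 DKO cells. Il10rb, the receptor gene deleted in both, had 39 UMIs in the KO and 8 in the DKO cells of the class, and counts of 3′ ends do not show whether the deleted part is present. The cells are labelled colon macrophages, and clusters with macrophage markers held 1511 KO and 318 DKO cells. The rest carried markers of B cells (230 and 166 cells), neutrophils (161 and 48), T cells (148 and 46), cytotoxic or innate lymphocytes (141 and 67) and dendritic cells (108 and 53), or stayed unnamed. Of these, B cells, neutrophils and T cells are types that the sort in the study's methods was meant to leave out. Clustered again without the 10 genes or the wider pathway list given below, the monocyte/macrophage-like cells fell into 5 states. They were a C1q-high state led by Dnase1l3 and Cd63 (549 KO and 87 DKO cells), Ly6c2/Vcan monocyte-like cells (443 and 89), and a C1q-high state led by Retnla and Ccl7 (293 and 119), with the stress genes Egr1 and Atf3 among its leading genes. The others were an Arg1/Nos2 state (183 and 1) and Cd300e/Ace nonclassical monocyte-like cells (43 and 22). Since the Arg1/Nos2 state came from 1 library, it may be that library rather than a type of cell. States and classes are clusters of the same cells in which the genes are compared, so differences between them are descriptions.

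Levels are in CPM, the UMIs of a gene per 1000000 UMIs of the group. They are not divided by gene length, so each gene is compared with itself between groups of cells. A gene was counted in a comparison where both sides together held at least 20 of its UMIs, and Nqo1 never did. Against the other named classes together, 5 of 9 countable genes were at least 2-fold higher in the monocyte/macrophage-like class of KO (14.7% of 10372 genes were) and 0 were at least 2-fold lower (15.4% of genes were). In the DKO library 4 of 9 were higher (17.5% of 8200 genes) and 0 were lower (12.2%). Hmox1 stood furthest apart, at 152 CPM in the class against 17.6 in the other classes of KO, and at 170 against 3.26 in DKO. Gclc, the catalytic subunit of the first enzyme of glutathione synthesis, was about level in both libraries, at 30.4 against 27.9 in KO and 23.1 against 22.1 in DKO.

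**Figure D1:**
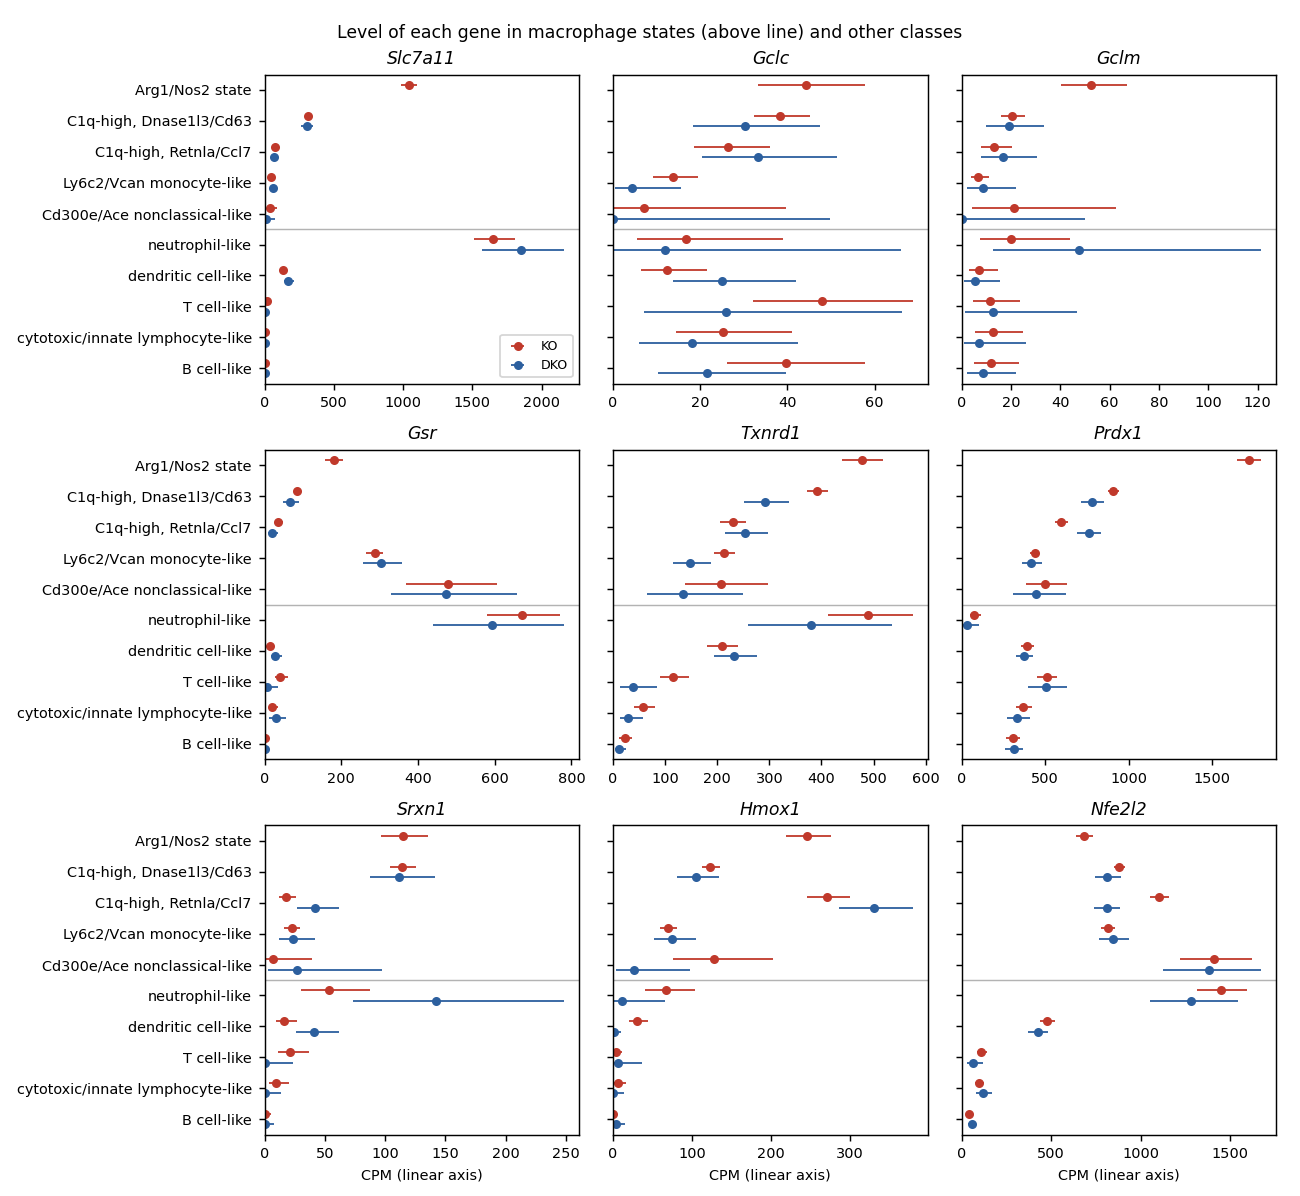
Level in CPM (linear axis, scaled for each gene) of 9 genes in the 5 monocyte/macrophage-like states (above the grey line) and 5 other classes, for KO (red) and DKO (blue); bars are exact 95% Poisson intervals, and the Arg1/Nos2 state has no DKO point because it held 1 DKO cell. Slc7a11 peaks in neutrophil-like cells and the Arg1/Nos2 state, Gsr in neutrophil-like and nonclassical-like cells, Hmox1 in the Retnla/Ccl7 and Arg1/Nos2 states, and Prdx1 in the Arg1/Nos2 state.

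Slc7a11 (ENSMUSG00000027737, chr3:49892526-50443614, minus strand, GRCm38) encodes the light chain of the transporter that exchanges glutamate for cystine, the source of cysteine for glutathione. Among macrophage states it was highest in the Arg1/Nos2 state of KO, at 1043 CPM (986 to 1102), where 181 of 183 cells held a UMI. The Dnase1l3/Cd63 state came next, with 312 (295 to 331) in the KO library and 307 (265 to 353) in the other. The Retnla/Ccl7 state had 72.6 in KO and 68.3 in DKO, and the Ly6c2/Vcan monocyte-like cells 44.8 and 64.4. The order of these states held in both libraries, although the intervals of the Retnla/Ccl7 and monocyte-like cells overlapped in DKO, as did those of monocyte-like and nonclassical-like cells in both. Neutrophil-like cells had the highest level of any group, 1652 (1509 to 1805) for KO and 1849 (1570 to 2163) for DKO. In the Arg1/Nos2 state the 8 neutrophil markers summed to 37.7 CPM, against 51.4 to 98.2 in the other KO states. Of these markers Retnlg, Ly6g and Camp were at 0, the last 2 also in the whole KO class. The macrophage markers were low there too: of 13 on the list, all with a UMI, 9 were at least 2-fold lower than in the other KO cells of the class and 0 higher (median -2.09), and Lyz2 had 814 CPM against 1674 to 4265 in the other KO states. As a gauge of free RNA, 0 of 230 KO and 0 of 166 DKO B cell-like cells held a UMI, which allows shares of up to 1.30% and 1.81% (the limit of a 0 is set at 3 cells of the total, here and below). Of T cell-like cells, 4 of 148 in KO held 12 UMIs (2.70% of cells), and 0 of 46 in DKO held any (a share of up to 6.52%). A UMI was seen in 98.9% of Arg1/Nos2 cells, 65.4% of KO Dnase1l3/Cd63 cells and 14.2% of KO monocyte-like cells. Thinned to 2000 UMIs per cell, Slc7a11 was seen in 81.8% of Arg1/Nos2 cells, 40.6% of KO Dnase1l3/Cd63 cells and 5.70% of KO monocyte-like cells.

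Gclc (ENSMUSG00000032350, chr9:77754535-77794485, plus strand) and Gclm (ENSMUSG00000028124, chr3:122245557-122270732, plus strand) encode the catalytic and modifier subunits of glutamate-cysteine ligase. Gclm had 52.4 CPM (40.4 to 67.0) in the Arg1/Nos2 state, 20.4 in KO Dnase1l3/Cd63 cells, 13.1 in KO Retnla/Ccl7 cells and 6.85 in KO monocyte-like cells. In DKO the last 3 had 19.2, 16.7 and 8.58. The order was the same, with intervals that overlapped from each to the next in both libraries, while that of the Arg1/Nos2 state lay above the other 3. The nonclassical-like cells held 3 UMIs in KO and 0 in DKO. Gclc was as high in KO T cell-like cells (47.9) and B cell-like cells (39.7) as in the Arg1/Nos2 state (44.2) and the KO Dnase1l3/Cd63 state (38.4), and all 4 intervals overlapped. Of the pair, Gclm thus set the Arg1/Nos2 state apart from lymphocytes (11.6 in KO T cell-like cells) and Gclc did not.

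Gsr (ENSMUSG00000031584, chr8:33652523-33698163, plus strand), glutathione reductase, returns oxidised glutathione to its reduced form with NADPH. Its order of states was unlike that of Slc7a11. It was highest in nonclassical-like cells, with 477 CPM (370 to 606) from KO and 473 (330 to 658) from DKO, and second in Ly6c2/Vcan monocyte-like cells, at 287 and 305. The Arg1/Nos2 state had 180 (157 to 206), the Dnase1l3/Cd63 state 85.2 and 65.5, and the Retnla/Ccl7 state 36.0 and 19.99. The order of the 4 states that both libraries hold was the same in each, and in KO no neighbours had overlapping intervals. Neutrophil-like cells were again the highest class, at 670 in KO and 593 in DKO, and B cell-like cells had 0 UMIs in both (shares of up to 1.30% and 1.81%). Other lymphocytes held more: T cell-like cells had 41.3 (26.7 to 60.9) in KO and 6.47 on 1 UMI in DKO. Cytotoxic or innate lymphocyte-like cells had 20.6 and 29.1, so the Retnla/Ccl7 state was no higher in Gsr than some lymphocytes.

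Txnrd1 (ENSMUSG00000020250, chr10:82833951-82897712, plus strand), cytosolic thioredoxin reductase, was highest in the Arg1/Nos2 state among KO states, at 478 CPM (440 to 519). Dnase1l3/Cd63 cells had 392.5 in KO and 292 in DKO, Retnla/Ccl7 cells 230 and 253, and monocyte-like cells 214 and 148. Prdx1 (ENSMUSG00000028691, chr4:116685544-116700822, plus strand), a peroxiredoxin that reduces hydrogen peroxide, had 1718 (1645 to 1793) in the Arg1/Nos2 state. The other states had 437 to 909 in KO and 418 to 780 in DKO. Prdx1 was low in neutrophil-like cells, at 77.1 in KO and 35.6 in DKO, where Slc7a11, Gsr and Txnrd1 were high. Single cells weighed on Prdx1: 1 KO Dnase1l3/Cd63 cell held 195 of its 3338 UMIs there and 1 Arg1/Nos2 cell 124 of 2097. Of the DKO cells 1 Dnase1l3/Cd63 cell held 74 of 488 and 1 Retnla/Ccl7 cell 58 of 456. Other genes leaned on 1 cell too, such as Hmox1 in KO Arg1/Nos2 (31 of 300) and monocyte-like cells (19 of 152). So did Srxn1 in DKO Dnase1l3/Cd63 cells (10 of 70) and Slc7a11 in DKO Retnla/Ccl7 cells (8 of 41). The true error thus exceeds the counting intervals for these genes.

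Srxn1 (ENSMUSG00000032802, chr2:152105516-152111376, plus strand), sulfiredoxin, restores peroxiredoxins that peroxide has over-oxidised. It was level in the Arg1/Nos2 state, at 115 CPM (96.5 to 135), and in Dnase1l3/Cd63 cells, with 114 (104 to 126) for KO and 112 (87.2 to 141) for DKO. Retnla/Ccl7 cells had 18.0 in KO and 41.6 in DKO, and monocyte-like cells 22.4 and 23.6. High Srxn1 was thus shared by the Arg1/Nos2 state and the Dnase1l3/Cd63 state, and the latter was seen in both libraries.

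Hmox1 (ENSMUSG00000005413, chr8:75093621-75100589, plus strand), haem oxygenase 1, breaks haem into biliverdin, iron and carbon monoxide. It was highest in the Retnla/Ccl7 state, with 271 CPM (245 to 299) for KO and 330 (285 to 379) for DKO. The Arg1/Nos2 state followed at 246 (219 to 275), with an interval that overlapped that of KO Retnla/Ccl7 cells. Dnase1l3/Cd63 cells had 123 and 105, and monocyte-like cells 69.4 and 75.1. The Retnla/Ccl7 state was also where a list of 9 dissociation and stress genes was highest, at 8977 CPM in KO and 7791 in DKO, against 1996 to 2728 in the other KO states and 1690 to 2319 in those DKO states with at least 20 cells. The part of that stress signal in Hmox1 was not tested. Hmox1 was near 0 in lymphocytes, with 2 UMIs in KO T cell-like cells and 0 in the 230 KO B cell-like cells (a share of up to 1.30%).

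Nqo1 (ENSMUSG00000003849, chr8:107388225-107403206, minus strand), a quinone reductase often read as the typical Nrf2 target, was all but undetected. It had 2 UMIs in the KO library, both in the Arg1/Nos2 state, and 1 UMI in the DKO library, outside the class. A 0 in the 318 DKO monocyte/macrophage-like cells allows, at 3 cells of the total, up to 0.943% of cells with a UMI, so differences in Nqo1 were not detectable at this depth.

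Nfe2l2 itself (ENSMUSG00000015839, chr2:75675513-75704641, minus strand) had another order. It was lowest of the KO states in the Arg1/Nos2 state, at 685 CPM (639 to 733), and highest in nonclassical-like cells, at 1410 (1220 to 1621) for KO and 1379 (1124 to 1674) for DKO. The Retnla/Ccl7 state was second in KO, at 1103 (1050 to 1159), while in DKO, at 810 (739 to 885), its interval overlapped those of monocyte-like and Dnase1l3/Cd63 cells. Monocyte-like and Dnase1l3/Cd63 cells had 817 to 879 in KO and 815 to 848 in DKO. It was a gene of myeloid cells here, with 1448 CPM in KO neutrophil-like cells and 478 in KO dendritic cell-like cells against 42.6 in KO B cell-like and 111 in KO T cell-like cells. Since Nrf2 is controlled mainly through the stability of its protein, the RNA level does not measure its activity.

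Set against all other KO monocyte/macrophage-like cells, the Arg1/Nos2 state had 8 of 9 countable genes with intervals above 0 and 1 below. The share of all genes with such intervals is not given here. Counting intervals are narrow at these sums: of 40 countable genes of the wider pathway list 15 lay above 0 and 12 below. Of the 9 genes, 3 passed 2-fold higher (7.67% of 9427 genes did) and 0 passed 2-fold lower (14.4%). Slc7a11 had 1043 CPM against 182, a log2 ratio of 2.52 (2.41 to 2.63), Gclm 52.4 against 15.0 (1.81, 1.34 to 2.26) and Prdx1 1718 against 701 (1.29, 1.22 to 1.37). Hmox1 was 0.85 higher on the log2 scale, Srxn1 0.79, Gclc 0.66, Txnrd1 0.65 and Gsr 0.34, while Nfe2l2 was lower, at -0.42 (-0.52 to -0.31). The median over the 9 genes was 0.79, beside -0.20 over all genes. The state made up 12.1% of the KO class's cells and 14.1% of its UMIs but held 48.4% of its Slc7a11, 36.4% of its Gclm and 28.6% of its Prdx1 UMIs.

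Against the Ly6c2/Vcan monocyte-like cells alone, 7 of 9 genes were at least 2-fold higher in the Arg1/Nos2 state (10.9% of genes were) and 0 at least 2-fold lower (13.9%), with Slc7a11 at 4.54 on the log2 scale and Gsr turned to -0.67.

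The Dnase1l3/Cd63 state, which both libraries hold, was set against the other states apart from the Arg1/Nos2 state. The reference cells thus differ from those above, which included the Dnase1l3/Cd63 state. In KO, 4 of 9 genes were at least 2-fold higher there (4.62% of genes) and 1 at least 2-fold lower (8.89%), and among DKO cells 2 were higher (4.66%) and 1 lower (13.6%). Slc7a11 was higher by 2.49 (2.28 to 2.72) on the log2 scale in KO, where 312 CPM stood against 55.4. Among DKO cells it was higher by 2.27 (1.88 to 2.69), with 307 against 63.1. Srxn1 was higher by 2.50 (2.15 to 2.88) and 1.74 (1.16 to 2.36). Gclc (1.06) and Gclm (1.05) passed 2-fold in KO, while in DKO, at 0.66 and 0.65, their intervals included 0. The lower gene was Gsr in both, at -1.21 and -1.33. Srxn1 thus stood as high in this state as in the Arg1/Nos2 state (log2 ratio between them 0.01, -0.28 to 0.28), and Slc7a11 did not (1.74, 1.62 to 1.86).

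A list of 10 hypoxia genes moved with the Arg1/Nos2 state. All 9 that could be counted were at least 2-fold higher in it, the list summed to 4871 CPM against 577 to 1160 in the other KO states, Adm was at 0, and Egln3 is also a marker of the state. The part of hypoxia in the genes' levels was not tested.

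**Figure D2:**
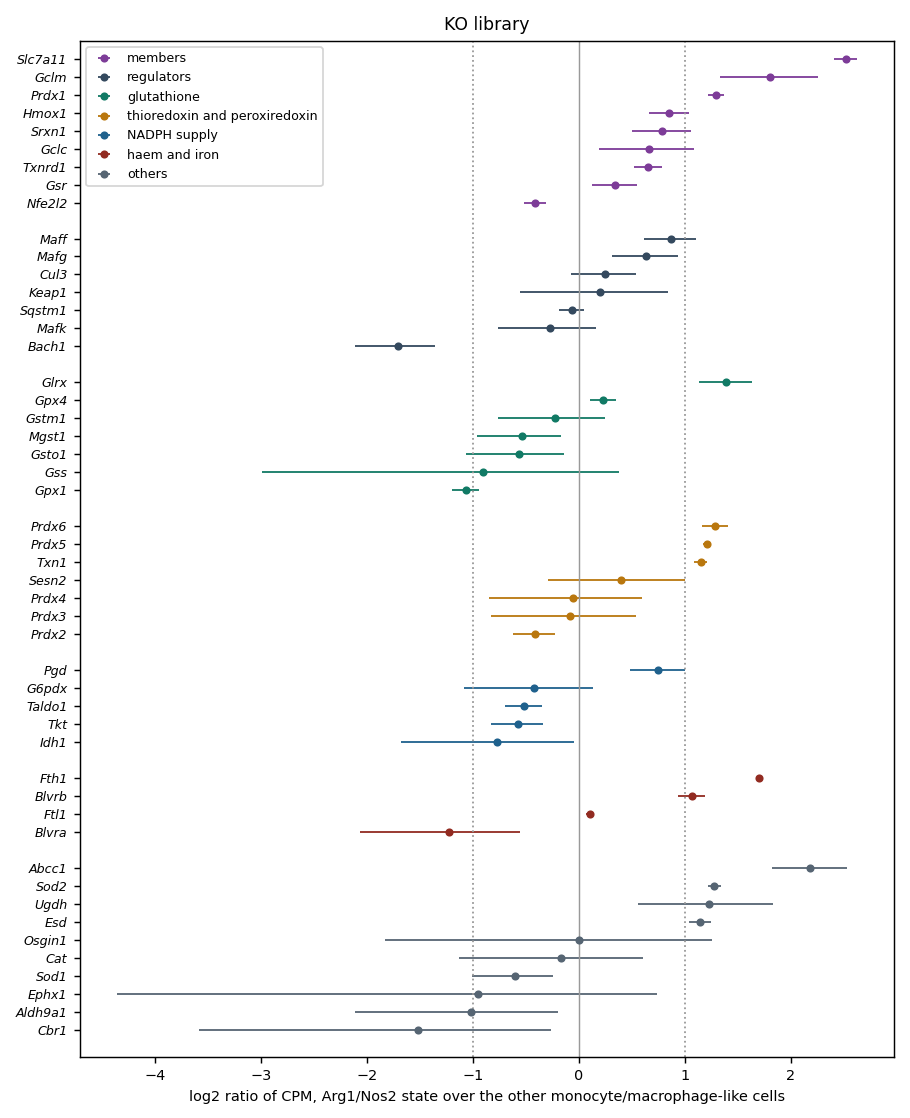
Log2 ratio of CPM in the Arg1/Nos2 state over the other monocyte/macrophage-like cells of the KO library, for the 9 countable genes (members) and 40 genes of the wider pathway list in 6 groups; bars are exact 95% conditional intervals and dotted lines mark 2-fold. Slc7a11, at 2.52, lies furthest right, and Bach1, at -1.71, furthest left.

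A wider list of 43 genes of the pathway, in 6 groups, showed how far the pattern reached. In the Arg1/Nos2 state 10 of 40 countable genes were at least 2-fold higher (7.67% of all genes), 5 were at least 2-fold lower (14.4%), and their median was -0.06. The genes furthest up were Abcc1, an exporter of glutathione conjugates (2.18), Fth1, the ferritin heavy chain that stores iron (1.70), Glrx, glutaredoxin (1.39), and Prdx6 (1.28). Fth1 alone reached 86271 CPM in the state against 26619 in the other cells. Near-identical copies of Fth1 exist, so its reads could have been split among them. In the thioredoxin and peroxiredoxin group 3 of 7 genes passed upwards and 0 downwards, in the NADPH supply group 0 of 5 passed either way, and among the regulators 0 of 7 passed upwards and 1 downwards. In the glutathione group 1 of 7 passed each way, in the haem and iron group 2 of 4 upwards and 1 downwards, and of the others 4 of 10 upwards and 2 downwards. The genes furthest down were Bach1, a repressor that competes with Nrf2 for its sites (-1.71, 51.6 against 170 CPM), Cbr1 (-1.52), Blvra, which turns the biliverdin made by haem oxygenase into bilirubin (-1.22), and Gpx1, a glutathione peroxidase (-1.07). Keap1, which holds Nrf2 in check and is named although it passed no threshold, had 22 UMIs in the state and a log2 ratio of 0.20 (-0.55 to 0.84).

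The DKO library held 1 cell of the Arg1/Nos2 cluster, so cells were also taken by a gate, at least 2 UMIs over the 6 markers Arg1, Nos2, Ptges, Slc7a2, Inhba and Egln3. The gate took 434 KO and 38 DKO cells, which differed in how far they were past it, with a median of 11 marker UMIs in KO and 3 in DKO. They also came from different clusters: 183 of the gated KO cells and 1 of the gated DKO cells lay in the Arg1/Nos2 cluster, and 176 of the 237 marker UMIs of the DKO class lay in its Dnase1l3/Cd63 cells. Of cells at the edge, 57 KO and 12 DKO cells held exactly 2 marker UMIs, and 129 and 15 held 1. In KO, 4 of 9 genes were at least 2-fold higher past the gate (5.08% of genes) and 0 lower (5.98%), and in DKO 1 was higher (4.98%) and 0 lower (10.4%). Slc7a11 was the gene that passed in both: 662 CPM past the gate against 124 in KO (2.41 on the log2 scale, 2.29 to 2.54), and 407 against 107 in DKO (1.93, 1.56 to 2.29). Prdx1 was higher past the gate in KO, at 1.06 (0.99 to 1.12), and about level in DKO, at 0.05 (-0.19 to 0.28). Hmox1 went opposite ways, 0.26 (0.10 to 0.42) in KO and -0.86 (-1.53 to -0.31) in DKO. Nfe2l2 was lower past the gate in both, at -0.13 and -0.51. Cells past the gate were deeper, with a median of 6280.5 against 5205 UMIs in KO and 6782.5 against 5267.5 in DKO. Levels are scaled to the group's total.

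The comparison of the genotypes asked how these genes stood in macrophages without CerS2. Over all monocyte/macrophage-like cells, 1 of 9 genes, Slc7a11, was at least 1.5-fold lower in DKO (8.85% of 9741 genes were), and 0 were at least 1.5-fold higher (12.5% of genes were). Slc7a11 had 303 CPM in KO and 151 in DKO (log2 ratio -1.003, -1.19 to -0.82). Txnrd1 had 329 and 235 (-0.48, -0.64 to -0.34), and Prdx1 had 844 and 662 (-0.35, -0.44 to -0.26). These 3 genes had intervals below 0. Gclm (-0.45), Gclc (-0.38), Srxn1 (-0.26), Gsr (-0.17) and Nfe2l2 (-0.06) had intervals that included 0. Hmox1 had 152 in KO and 170 in DKO (0.17, -0.02 to 0.35), and its direction turned with the cells taken, to -0.33 under a stricter cell filter and -0.04 over every cell with a Lyz2 UMI. The median of the 9 genes was -0.35, beside 0.10 over all genes.

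The libraries differed in their mix of states, and the class totals moved with it. The Arg1/Nos2 state made up 12.1% (10.5 to 13.9) of the KO class and 0.314% (0.00796 to 1.74) of the DKO class, and the Retnla/Ccl7 state 19.4% and 37.4%. With the Arg1/Nos2 state left out, 0 of 9 genes passed 1.5-fold either way (11.2% of genes were higher and 7.48% lower), and the median of the genes moved to -0.12. Slc7a11 then had 182 CPM in KO and 149.5 in DKO (-0.28, -0.48 to -0.09). With the 4 states that had at least 20 cells in each library weighted as in KO, its log2 ratio was 0.03. Without the state, Gclm moved from -0.45 to -0.01 and Prdx1 from -0.35 to -0.08. Txnrd1 moved least of the 3 genes with intervals below 0, from -0.48 to -0.38 (-0.53 to -0.23), and Hmox1 moved up, from 0.17 to 0.32 (0.13 to 0.51). The hypoxia list moved in the same way over the class, with 5 of 9 genes at least 1.5-fold lower in DKO and a summed level of 1511 CPM in KO and 878 in DKO. Markers of type 2 conventional dendritic cells also moved, with 3 of 3 countable genes at least 1.5-fold higher in DKO (median 1.58) and a summed level of 52.6 and 151 CPM, and of type 1 markers 2 of 3 were higher (median 1.61), with 14.0 and 29.9. The part of these lists in the genes' differences was not tested.

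**Figure D3:**
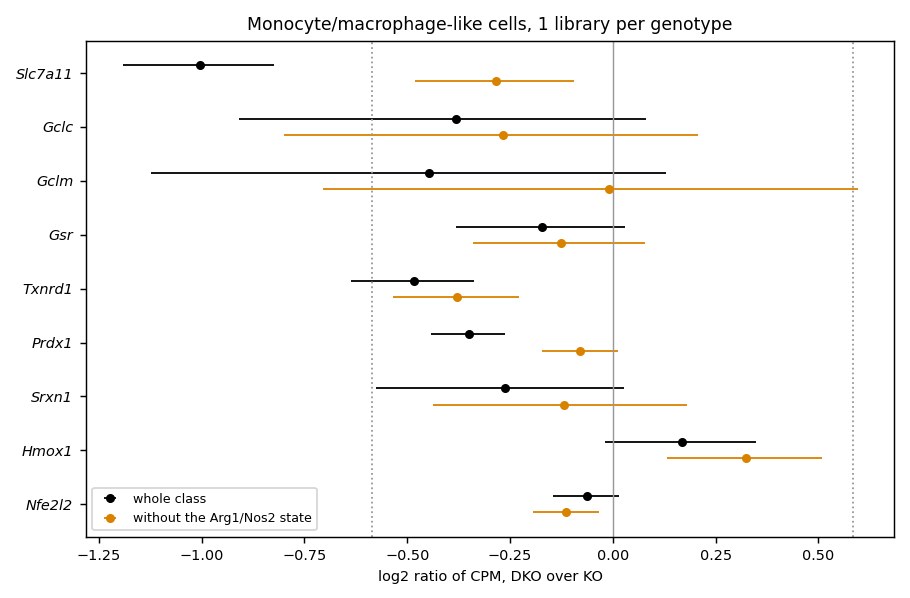
Log2 ratio of CPM, DKO over KO, for 9 genes in all monocyte/macrophage-like cells (black) and without the Arg1/Nos2 state (orange); bars are exact 95% conditional intervals and dotted lines mark 1.5-fold. Slc7a11 moves from -1.003 to -0.28 when the state is left out, and Txnrd1 from -0.48 to -0.38.

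Within single states the genes did not all differ in 1 direction. In the Dnase1l3/Cd63 state 0 of 9 genes were at least 1.5-fold higher in DKO (12.6% of genes) and 0 lower (11.8%), with Slc7a11 at -0.02 (-0.255 to 0.195), Txnrd1 at -0.42 (-0.66 to -0.20) and Prdx1 at -0.22 (-0.36 to -0.08). In Ly6c2/Vcan monocyte-like cells 0 of 8 were higher (10.8%) and 1 was lower (14.1%), Gclc, on 2 DKO UMIs and with an interval that included 0. Txnrd1 was at -0.52 (-0.92 to -0.16) there, so it was lower in DKO in both of these states, with intervals below 0. In the Retnla/Ccl7 state 1 of 9 genes was higher (14.6%) and 1 lower (9.60%). The higher gene was Srxn1, at 18.0 CPM in KO and 41.6 in DKO (log2 ratio 1.21, 0.36 to 2.06), on 26 and 25 UMIs, and the lower gene was Gsr, at -0.80 (-1.89 to 0.08). Prdx1 was higher in DKO in that state (0.35, 0.18 to 0.52), as was Hmox1 (0.28, 0.03 to 0.53), Nfe2l2 was lower (-0.45, -0.60 to -0.30), and Txnrd1 was at 0.14 (-0.15 to 0.42). Of the 456 DKO Prdx1 UMIs there, 58 lay in 1 cell. Within that state the 7 Mrc1/Retnla resident-like markers summed to 1175 CPM in KO and 2432 in DKO, and 5 markers of type 2 conventional dendritic cells to 179 and 330 with Flt3 at 0 in both. The part of these in the differences was not tested. In nonclassical-like cells 5 genes could be counted, 0 were higher (14.4%) and 1 was lower (19.0%), Hmox1, with 18 UMIs in KO and 2 in DKO.

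**Figure D4:**
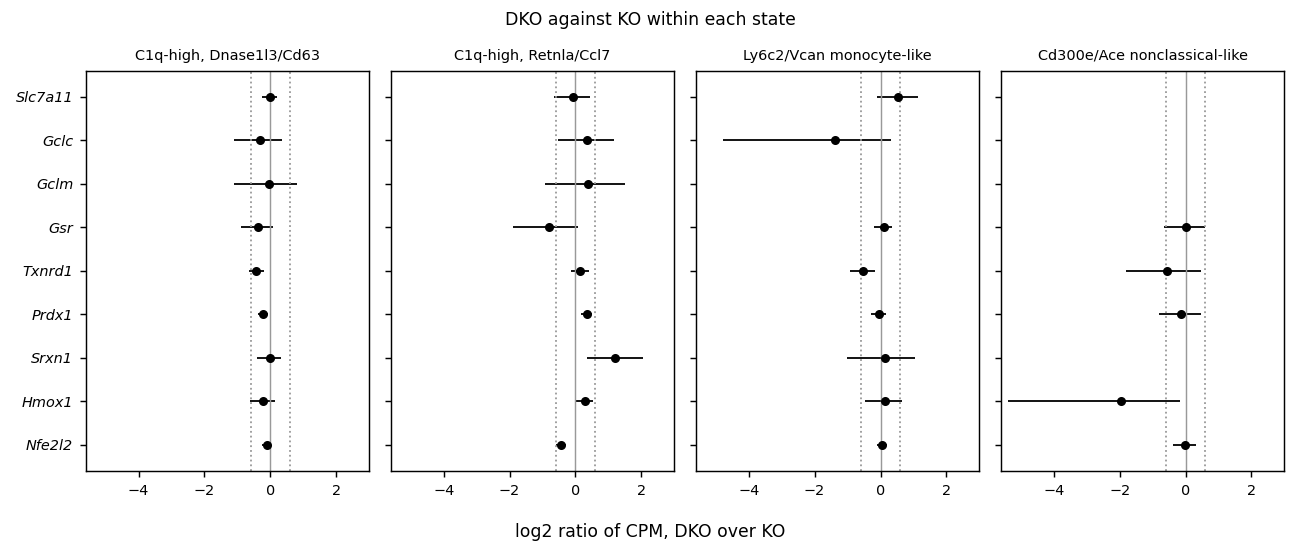
Log2 ratio of CPM, DKO over KO, for the countable genes in each of 4 states; bars are exact 95% conditional intervals, dotted lines mark 1.5-fold and a missing point had under 20 UMIs. Txnrd1 lies left of 0 in Dnase1l3/Cd63 and monocyte-like cells, and in the Retnla/Ccl7 state Srxn1 (1.21) lies right of the 1.5-fold line.

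By the marker gate, the cells past it had 0 of 9 genes at least 1.5-fold higher in DKO (20.9% of genes) and 4 lower (17.2%): Gclm, Prdx1, Hmox1 and Slc7a11. Slc7a11 had 662 CPM in KO and 407 in DKO (-0.70, -0.997 to -0.42), and Prdx1 1292 and 680 (-0.92, -1.15 to -0.71). These values compare cells of different clusters, since 183 of 434 gated KO cells but 1 of 38 gated DKO cells belonged to the Arg1/Nos2 cluster, and genotype and cluster cannot be told apart here. In cells not past the gate 0 genes passed either way (12.1% of genes were higher and 7.22% lower), with Slc7a11 at -0.22 (-0.48 to 0.03) and Txnrd1 at -0.33 (-0.51 to -0.16).

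Outside the macrophage class the counts were small. In neutrophil-like cells 1 of 7 countable genes was at least 1.5-fold higher in DKO (13.3% of genes) and 2 were lower (22.7%). Slc7a11, at 1652 and 1849 CPM, gave a log2 ratio of 0.17 (-0.11 to 0.42) there, and Srxn1 1.42 (0.20 to 2.58) on 16 and 12 UMIs, 6 of the 12 in 1 cell. In dendritic cell-like cells 3 of 8 were higher (11.7%) and 1 lower (16.4%), with Srxn1 at 1.31 (0.34 to 2.34). The lower gene was Hmox1, with 30 UMIs in 8 of 108 KO cells, 12 of them in 1 cell, and 1 UMI in DKO. In B cell-like cells 0 of 4 were higher (14.3%) and 2 lower (9.13%), in T cell-like cells 0 of 5 were higher (13.2%) and 4 lower (20.5%), and in cytotoxic or innate lymphocyte-like cells 0 of 5 were higher (10.8%) and 1 lower (17.7%). In these 3 classes the interval lay below 0 for Txnrd1 (-1.47, -3.07 to -0.38) and Gsr (-2.12, -8.03 to -0.06) in T cell-like cells, on 6 and 1 DKO UMIs.

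The wider list did not follow the 10 genes in 1 direction between genotypes. In all monocyte/macrophage-like cells 3 of 40 countable genes were at least 1.5-fold higher in DKO (12.5% of all genes) and 7 at least 1.5-fold lower (8.85%), with a median of -0.01. The higher genes were Ephx1 (0.96, with an interval that included 0), Prdx4 (0.88) and Bach1, which had 154 CPM in KO and 252 in DKO (0.71, 0.56 to 0.87). The lowest were Abcc1 (-1.32), Prdx5, a peroxiredoxin (-0.96, 3143 and 1617 CPM), Sod2, the mitochondrial superoxide dismutase (-0.83, 1183 and 666), and Glrx (-0.69). Fth1 was at -0.66 and Txn1, thioredoxin, at -0.60 (both singled out after their values were seen). Without the Arg1/Nos2 state 2 were higher (11.2% of all genes) and 3 lower (7.48%). Bach1 was at 0.57 (0.41 to 0.73) without that state. It was highest in the Retnla/Ccl7 state in both libraries, at 329 CPM in KO and 431 in DKO, with intervals that did not overlap. That state held 16.7% of the UMIs of the KO class and 33.9% of those of the DKO class. Bach1 was also higher in DKO in Dnase1l3/Cd63 cells (95.3 and 116.6) and monocyte-like cells (185.9 and 225.3), with overlapping intervals. Nonclassical-like cells went the other way (270.6 and 135.2), again with overlap. The part of the mix of states in the Bach1 difference was not tested.

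Single cells seldom showed many of the genes at once. Thinned to 2000 UMIs, which left 1421 KO and 291 DKO monocyte/macrophage-like cells, the median cell held 3 of the 10 genes in KO and 2 in DKO. At least 5 were seen in 130 KO cells (9.15%) and 11 DKO cells (3.78%). By state the share was 27.1% in the Arg1/Nos2 state and 12.0% in Dnase1l3/Cd63 cells of KO, 7.14% in those of DKO, and 1.66% and 1.22% in monocyte-like cells. The highest number in any KO B cell-like cell was 4.

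Over the 10 classes and states of KO with at least 20 cells, the mean over the 10 genes of log2(CPM + 10) was highest in the Arg1/Nos2 state (7.70), then in neutrophil-like cells (7.13) and Dnase1l3/Cd63 cells (7.11), and lowest in B cell-like cells (4.57). The genes outside both lists whose levels followed that mean most closely were Clec4n and Pla2g7 (Pearson's r 0.97 each) and Ly6i (0.97), followed by Cd14, Lcp1, Wsb2, Smox, Olr1, Bcl2a1a and Fcgr3 (0.96 to 0.94). Of the 10 genes themselves, Txnrd1 followed their mean most closely (0.96), Prdx1 did so weakly (0.29) and Gclc not at all (-0.10). Each of these genes is part of the mean, which can raise its r, so these values do not compare with those of genes outside it. These r values describe 10 groups from 1 library that share its depth and its free RNA, and the 10 most alike were picked from all genes.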

How the data were processed

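The deposited files hold raw UMI counts, made by the authors with Cell Ranger 6.0.1 (mm10), with no stated correction for free RNA. Following the study, barcodes with 300 to 5000 genes and no more than 10% mitochondrial UMIs were kept and clustered with Seurat 5.3.0 (2000 variable genes, 30 components, 20 neighbours, resolution 0.3, no batch correction). Clusters were named from marker lists by a scoring rule written after the clusters were seen (3 markers, each at 25% of its highest cluster level and in 20% of cells). Scrublet (scanpy 1.11.5) called 6 KO and 1 DKO doublets, too few to rely on, and none were removed. Macrophage states were reclustered without the 10 genes and the 43 wider pathway genes.

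UMIs were summed per group and divided by the group's total. Ratios, with 0.5 added to each sum, have exact conditional intervals, levels exact Poisson and shares exact Clopper-Pearson intervals, and the limit for a share of 0 is 3 cells of the total. The calculation was run on simulated Poisson sums, the model the intervals assume. That run checks the code only, since it held no spread between cells or libraries. With 1 library per genotype no test was run. Named were the 10 genes and, of the wider list, up to 4 past the fold each way. Members, lists and gate were chosen with earlier results of these data known. Alternatives included TMM scaling (edgeR 4.0.16), 10 UMIs as the minimum, a filter at 500 genes and 5% mitochondrial UMIs, resolution 0.8 and removal of the 5% highest doublet scores. Positions are from GENCODE vM21.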

Additional observations from a re-analysis of the deposited data

How the results depend on the processing

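Slc7a11 was lower in DKO over the class in 10 of 11 alternatives, from -1.62 to -0.28 on the log2 scale, and turned to 0.0266 with states weighted as in KO. Members at least 1.5-fold lower in DKO numbered 1, and became 2 with TMM scaling, 3 with the stricter cell filter, 2 with that filter and its unnamed macrophage cluster kept, and 0 without the Arg1/Nos2 state, with states weighted as in KO or over every cell with a Lyz2 UMI. Of the wider list, 3 were higher, and 1 with the stricter filter and 5 at resolution 0.8, while 7 were lower, and 3 without the state, 2 with weighted states and 4 over Lyz2 cells. In the Arg1/Nos2 state 3 members were at least 2-fold higher, and 6 at resolution 0.8 (median 1.20) and 7 against monocyte-like cells alone (median 1.82). The wider list had 5 lower, and 3 with TMM, 8 at resolution 0.8, 8 without the cell holding most UMIs of each gene and 1 with the marker gate, which also took its 10 higher to 5. The other 86 recomputed counts and medians stayed within 1.5 times of these or, for medians, within the interval of the gene at the median. Shares of all genes past the fold are given above only for the main setting, without the state, against monocyte-like cells and by the gate. For the other alternatives they are not given, so a changed count there cannot be read as a result about the genes. Gclm, Srxn1, Gsr and Nfe2l2, all below 0 between genotypes, turned above 0 in 1 alternative each, to at most 0.14. In the Arg1/Nos2 state against other KO cells, Gsr (0.34) kept its sign in 8 of 10 alternatives, with -0.67 the lowest value. TMM moved the median of all genes from 0.10 to -0.03 between genotypes and from -0.20 to -0.07 for the state. At resolution 0.8 and with the stricter filter 1 cluster with macrophage markers lost its name, which took the class to 1056 and 1215 KO cells. The versions that kept it, and the gate in DKO, were chosen after seeing the data. The causes of the other changes were not tested.

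No paired analysis was possible because each genotype has 1 library, so genotype, mice, sort and library cannot be told apart. Depth limits Nqo1, Gclm and Gclc most, with 26 and 41 DKO UMIs for the last 2 in the class.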

Other observations

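An unnamed cluster of shallow cells (109 KO and 24 DKO cells, median 741 UMIs), which carried 3 macrophage markers, entered none of the comparisons of named classes and states above. It held Nfe2l2 at 1075 CPM in KO and 788 in DKO, Gclc at 130 and 83.0 on only 12 and 2 UMIs, and Slc7a11 at 250 in KO on 23 UMIs. Within it 0 of 3 countable genes were at least 1.5-fold higher in DKO (21.2% of genes) and 2 lower (23.9%), all with intervals that included 0. Another unnamed cluster (35 and 8 cells), with T cell markers and the epithelial genes Spink4 and Agr2 among its leading genes, held the Nqo1 UMI of the DKO library and Prdx1 at 702 and 453 CPM.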
